A study of Mus musculus with 9 samples.

Results

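The serpins are a family of protease inhibitors that was followed here in mouse back skin, by gene symbol, through tape stripping and a graphene oxide cream. Entries whose symbol began with Serpin, a clade letter from a to i and a digit were taken from the deposited count tables, and those with at least 30 counts summed over the 9 libraries were kept as members. Of 63 matching entries, 37 were members, out of 23282 entries in each table. A further 17 had some counts but fewer than 30, and 9 were at 0 in every library. Clade A, the antitrypsin and antichymotrypsin group, had 11 members of 25 entries, and clade B, the intracellular serpins, had 17 of 27. Clade E had 3 of 3, clade F 2 of 2, and clades C, D, G and H had 1 of 1 each. Neither of the 2 clade I entries reached 30 counts. The members just inside the minimum were Serpinf2 with 30 counts, Serpina1f with 35 and Serpind1 with 36, and the entries just outside were Serpinb6d with 26, Serpina3f with 19 and Serpina1c with 18.

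A serpin works as a suicide substrate. A protease cleaves the exposed reactive centre loop, the loop inserts into the body of the serpin, and the protease is dragged along and locked in a distorted, inactive form. Secreted clade A, C, D, E, F and G members act in blood and in the extracellular matrix on coagulation, fibrinolysis, complement and leukocyte proteases, whereas most clade B members stay in the cytoplasm. In skin, several clade B serpins are made by keratinocytes and limit proteases of the cornifying layers. A few family members, among them Serpinb5, Serpinf1 and Serpinh1, have lost inhibition and do other work.

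The series holds 9 back skin libraries from wild-type C57BL/6 (B6) mice, 3 in each of 3 groups labelled None, TS and TS_NGO. None was unstripped skin labelled with control cream, TS was tape-stripped skin with control cream, and TS_NGO was tape-stripped skin that received graphene oxide of nano size, a sheet-like carbon material abbreviated NGO, in a cream (50 µg in 100 µL per mouse), and all skin was taken at 24 h. Genotype, strain and collection time were thus shared by all groups, and the ages of the mice are not given in the sources used here. The protocol places cream on stripped skin, so whether the unstripped skin received any is not clear from the labels. Nothing in the labels says that replicates came from separate mice, so the p-values speak of the spread among these libraries, which may be technical. The 3 groups are called unstripped, stripped control and NGO-treated below.

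Libraries were made from 3′ tags, which yield a tag per transcript end whatever the transcript length, so levels are given as CPM, a gene's counts relative to the TMM-scaled library size, with no length term. Library totals ran from 2794791 to 2937738 counts in unstripped skin, from 2019739 to 4053655 in the stripped control group and from 2997238 to 6303322 with NGO. The cell type markers differed between the groups. Summed basal epidermal markers (Krt5, Krt14, Krt15, Col17a1, Itga6 and Trp63) ran from 22213 to 30597 CPM in unstripped, 1297 to 2270 CPM in stripped control and 11381 to 17890 CPM in NGO-treated libraries, and 6 of 6 were called lower after stripping and higher with NGO. Suprabasal markers (6 of 7 listed in the files) ran from 6253 to 12738, 243 to 399.8 and 883 to 1237 CPM in the same order, and Ivl was at 0 in all stripped control libraries. Markers of skeletal muscle, the layer under mouse skin, ran from 47.2 to 928, 36491 to 94241 and 15999 to 34575 CPM, and 8 of 8 were called higher after stripping. Summed fibroblast markers ran from 326 to 358, 905 to 1329 and 636 to 1453 CPM, endothelial markers from 33.9 to 49.8, 335 to 599 and 213 to 292 CPM, and adipocyte markers from 49.5 to 71.0, 863 to 1147 and 455 to 759.7 CPM. Neutrophil markers ran from 32.3 to 44.8, 3381 to 9737 and 468 to 1518 CPM, macrophage markers from 54.5 to 106, 101 to 297 and 72.2 to 108 CPM, and mast cell markers from 0.344 to 4.42, 0 to 10.6 and 0 to 10.6 CPM. In such whole-tissue RNA, fewer cells of a type and less RNA per cell cannot be told apart, and the part of these shifts in the serpin results below was not tested.

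Together the 37 members made up between 0.103% and 0.159% of the counts of a library. On the TMM-scaled library size, their summed level was higher in all 6 stripped libraries than in any unstripped one. It was 949, 993 and 1072 CPM in the unstripped libraries in ascending order, 1191, 1486 and 1768 CPM in stripped control libraries and 1264, 1410 and 1436 CPM in NGO-treated libraries. By share of raw counts the groups overlapped, with stripped control libraries 1 (0.114%) and 2 (0.119%) below unstripped library 3 (0.124%). In unstripped skin the leading member was Serpinb5 with 23.7% of the summed group mean, although in unstripped library 1 Serpinb6a was above it (201 against 156 CPM). Serpinb6a led both stripped groups, with 49.2% under control cream and 35.2% under NGO. Fewer members were detected after stripping: 30, 33 and 32 of 37 had at least 1 count in the unstripped libraries 1, 2 and 3, against 21, 19 and 19 in stripped control and 29, 30 and 24 in NGO-treated libraries. All 3 stripped control libraries were below every other library in this count, although library 2 and library 3 of that group had more total counts than any unstripped library. The same held over all entries of the tables. Detected entries numbered 14546, 16183 and 16086 in unstripped libraries and 12433, 13254 and 13309 in stripped control libraries. They numbered 14102, 13863 and 14404 in NGO-treated libraries. Lower detection in stripped control skin was thus not confined to serpins.

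**Figure D1:**
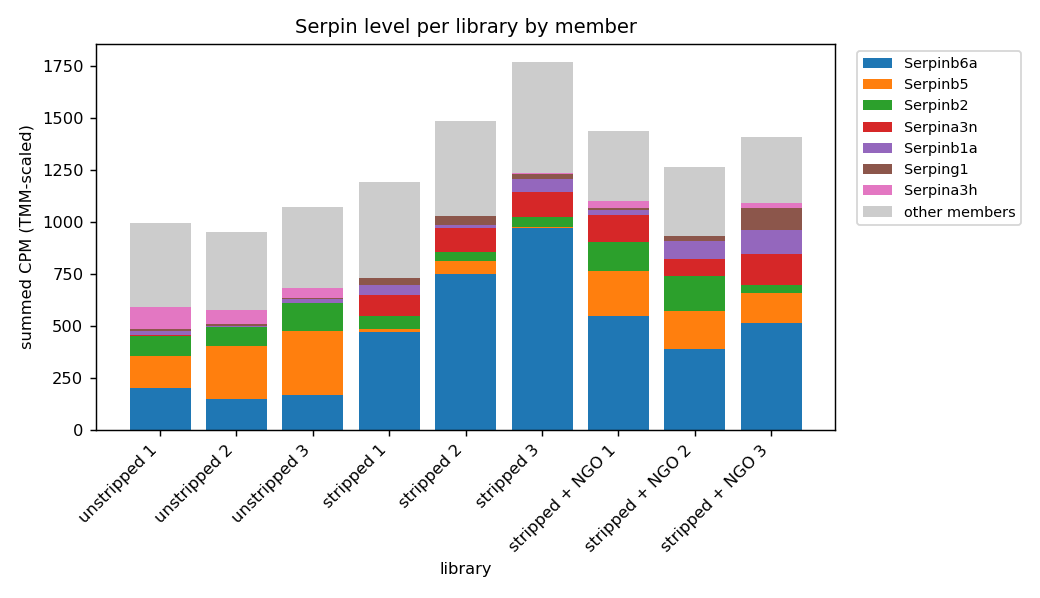
Summed serpin level in each of the 9 libraries (bars, CPM on the TMM-scaled library size), split into 7 members of high mean level and all other members. Serpinb5 is a large block in the unstripped and NGO-treated libraries and a thin one in the stripped control libraries, where Serpinb6a is the largest named block.

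The default low-count filter of edgeR left 30 of the 37 members for testing among 13740 genes. Stripping was followed by a call (edgeR quasi-likelihood test, Benjamini-Hochberg adjusted p under 0.05 over all genes) for 11 of the 30, with 4 higher and 7 lower. Over all genes tested, 13.6% were called in this comparison, 5.97% higher and 7.64% lower. The unadjusted p was under 0.05 for 18 members. Serpina3n, Serpinb6a and Serpina3m were among the 4 higher members, and the 7 lower were Serpina3b, Serpina3j, Serpina3h, Serpina12, Serpinb5, Serpinb8 and Serpinb12. The median log2 fold change of the 30 tested members was −0.11, beside −0.20 over all genes tested. Single members spread far to both sides of that median. All 3 stripped libraries lay above all 3 unstripped ones for 7 members and below them for 12 (13.8% and 24.7% of all genes tested).

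**Figure D2:**
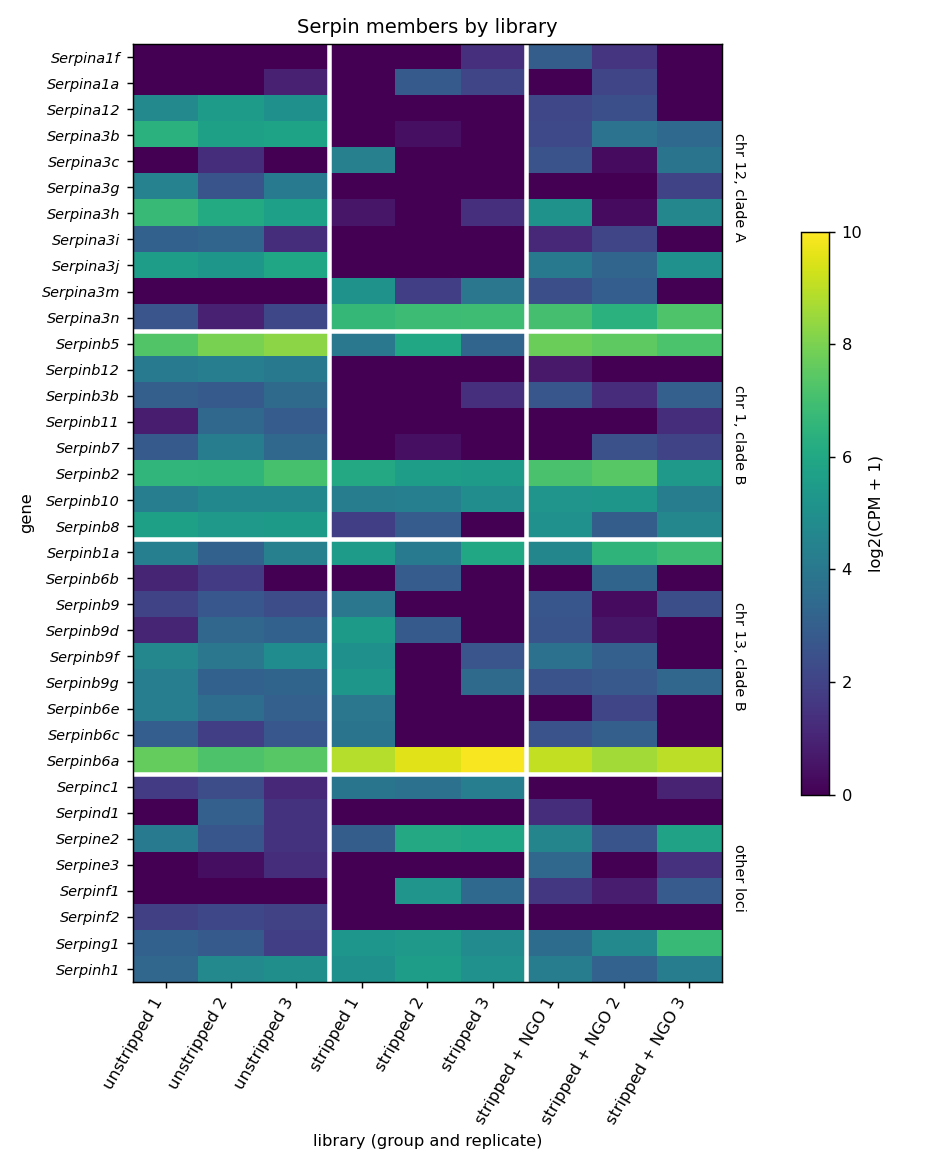
Level of the members described in the text (lines, ordered by locus and position) in the 9 libraries (columns), as log2(CPM + 1) on the TMM-scaled library size. Dark cells in the stripped control columns mark the chromosome 12 and chromosome 1 members that were at or near 0 there, and Serpinb6a is bright in every column.

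Among the clade E members, Serpine2, protease nexin-1, which inhibits thrombin and urokinase, was at 16.2, 5.31 and 1.77 CPM in unstripped, 6.72, 64.7 and 59.1 CPM in stripped control and 22.6, 5.09 and 52.7 CPM in NGO-treated libraries. Its stripped control library 1 lay among the unstripped values, and the log2 fold change after stripping of 2.49 ± 1.07 (SE) did not pass (edgeR adjusted p = 0.147). Serpine3 had 46 counts in all and was not tested. It was at 0 in the stripped control libraries and at 9.06, 0 and 1.66 CPM in the NGO-treated ones, and it overlaps Ints6 on the other strand.

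Urokinase and the other genes of plasminogen activation were listed as 9 genes, and 6 were tested. After stripping only Anxa2, a cell-surface plasminogen receptor subunit, was called among them, and it fell (log2 fold change −1.70 ± 0.32; edgeR adjusted p = 0.00303). With NGO 0 were called against stripped control skin and 0 against unstripped skin, where 2 and 1 had an unadjusted p under 0.05. Of all genes tested, 13.6% were called after stripping, and 5.05% and 2.51% in these NGO comparisons. Plau, which encodes urokinase, was at 13.2 ± 6.98, 13.8 ± 5.53 and 3.69 ± 3.59 CPM (SD, n = 3) and its receptor Plaur at means of 36.2, 80.1 and 28.2 CPM, and neither was called. Plg, which encodes plasminogen, was at 0 in unstripped skin. Of the endothelial markers, 5 of 5 were called higher after stripping.

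Among the clade A serpins, all 11 members lie in a single cluster on mm10 chromosome 12, from 103688044 to 104414329, and 2 members rose while 4 fell after stripping, of 9 tested (5.97% and 7.64% of all genes tested). The cluster holds the mouse expansion of antichymotrypsin-like Serpina3 genes. Serpina3n, an acute phase inhibitor of leukocyte elastase and granzyme B, is the last gene of the cluster at 104406729 to 104414329 on the plus strand. It was at 5.16, 0.884 and 3.54 CPM in unstripped, 101, 115 and 119.5 CPM in stripped control and 130.1, 81.9 and 149 CPM in NGO-treated libraries. All 6 stripped libraries were above all unstripped ones, and the stripped control and NGO-treated ranges overlapped. Its log2 fold change was 5.13 ± 0.58 after stripping (edgeR adjusted p = 8.92e-05) and 5.23 ± 0.58 with NGO against unstripped skin (edgeR adjusted p = 0.000356). Between the NGO-treated and stripped control groups it was 0.11 ± 0.47 (edgeR adjusted p = 0.93), with a standard error that leaves room for a difference of either sign. Of the summed clade A level, Serpina3n made up 79.9% under control cream on stripped skin and 64.7% under NGO.

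Of the other members of the cluster, 4 fell. Serpina3b (104127996 to 104139545) was at 82.2, 51.0 and 54.2 CPM in unstripped, 0, 0.325 and 0 CPM in stripped control and 3.62, 12.95 and 9.82 CPM in NGO-treated libraries. The 3 groups did not overlap: every NGO-treated library was above every stripped control library and below every unstripped one. The log2 fold change was −8.64 ± 1.16 after stripping (edgeR adjusted p = 0.000272) and 5.82 ± 1.11 for NGO against stripped control (edgeR adjusted p = 0.012). Serpina3j (104314553 to 104320725) was at 46.4, 38.3 and 58.4 CPM in unstripped skin, at 0 in all 3 stripped control libraries and at 15.4, 8.56 and 32.4 CPM with NGO. A count of 0 over the stripped control group allows up to 0.369 CPM (3 counts over its pooled libraries, counting error only). Against that limit Serpina3j was at least 129-fold higher in unstripped skin (edgeR adjusted p = 0.000468) and at least 56.2-fold higher in NGO-treated skin (edgeR adjusted p = 0.00493).

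Serpina3h (104247905 to 104253669), which the GENCODE annotation classes as a transcribed pseudogene, led clade A in unstripped skin with 31.0% of its level. It was at 108, 68.4 and 48.9 CPM there, at 0.517, 0 and 1.61 CPM in stripped control libraries and at 33.5, 0.231 and 23.5 CPM in NGO-treated ones. NGO-treated library 2 lay among the stripped control values. The fall after stripping had a fitted log2 fold change of −6.62 ± 1.42 (edgeR adjusted p = 0.00675), and the value for NGO against stripped control, 4.65 ± 1.34, did not pass (edgeR adjusted p = 0.0621). Serpina12, vaspin, an inhibitor of the epidermal kallikrein Klk7 that is also made by fat, lies at 104028769 to 104044443 on the minus strand. It was at 25.5, 44.2 and 31.2 CPM in unstripped skin, at 0 in all stripped control libraries and at 3.32, 4.40 and 0 CPM with NGO. The fall was at least 92.2-fold (edgeR adjusted p = 0.0116). The NGO-treated group was at least 5.95-fold above the stripped control group on pooled counts, and this did not pass (edgeR adjusted p = 0.12).

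Serpina3m (104338486 to 104394257) was at 0 in all unstripped libraries, at 33.6, 2.60 and 14.8 CPM in stripped control libraries and at 4.23, 6.94 and 0 CPM with NGO. It was called higher after stripping, by at least 47.3-fold (edgeR adjusted p = 0.0426), but the call held in only 2 of 9 fits that each left out a library. It was lost without unstripped library 1 (edgeR adjusted p = 0.124), 2 (0.123) or 3 (0.124), without stripped control library 1 (0.0887) or 3 (0.063), and without NGO-treated library 1 (0.0663) or 2 (0.0583). Serpina3m overlaps Serpina3k, a paralogue, on the same strand. Serpina3g, an inhibitor of cysteine cathepsins, and Serpina3i were also at 0 in all stripped control libraries. Serpina3g was at 20.6, 5.01 and 15.9 CPM in unstripped skin, at least 36.6-fold above the stripped control group (edgeR adjusted p = 0.065), and Serpina3i at 7.57, 8.55 and 1.47 CPM, at least 15.6-fold (edgeR adjusted p = 0.0982), and neither passed. Serpina3g shares 22.0% of the 50-base stretches of its transcript ends with paralogues, most of them with Serpina3h, at any position in the paralogue's transcripts. The transcript end of Serpina3h itself shared 1.2% of its stretches, and only with Serpina3f. Whether the Serpina3g counts include reads of paralogues was not tested. Serpina3c was at 0, 1.47 and 0 CPM in unstripped, 19.7, 0 and 0 CPM in stripped control and 4.83, 0.231 and 13.3 CPM in NGO-treated libraries and was not called. Of the members not tested, Serpina1a had 46 counts and shares 77.4% of its transcript ends with close copies, so its counts may include reads of those copies. Serpina1f was at 0 in unstripped skin and at 6.64, 1.85 and 0 CPM with NGO.

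Read along the chromosome, the cluster held neighbours with opposite changes in the same libraries. With genes at 0 put at their lower bound, the median log2 fold change of the 9 tested clade A members was −5.19 after stripping and 1.91 for NGO against stripped control. The summed clade A level was 243 ± 45.8 CPM in unstripped, 140 ± 15.4 CPM in stripped control and 186 ± 55.8 CPM in NGO-treated skin (SD, n = 3). Of these 9, 5 were at 0 throughout a group in the stripping comparison. The 250 bases before the start of Serpina3n and of Serpina3b are shown because these genes of the same cluster, which are not adjacent, changed in opposite directions. They are from RefSeq on GRCm38.p6, plus strand, with capitals marking an NF-kB match in the former and a TATA match (TATAAA) in the latter.
Serpina3n, chr12:104406458-104406707: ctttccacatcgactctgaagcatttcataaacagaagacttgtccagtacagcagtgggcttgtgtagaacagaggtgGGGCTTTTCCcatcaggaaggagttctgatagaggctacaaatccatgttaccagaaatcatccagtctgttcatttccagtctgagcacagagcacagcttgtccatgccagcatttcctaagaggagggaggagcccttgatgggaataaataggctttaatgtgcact
Serpina3b, chr12:104127746-104127995: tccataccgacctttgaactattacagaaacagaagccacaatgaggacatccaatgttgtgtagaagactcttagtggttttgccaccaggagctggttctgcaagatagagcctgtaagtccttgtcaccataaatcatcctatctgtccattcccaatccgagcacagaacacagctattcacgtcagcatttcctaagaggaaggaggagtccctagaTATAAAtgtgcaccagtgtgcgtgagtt
The windows had 180 of 250 bases identical in a pairwise alignment (72% of the window). The window of Serpina3c was closer to that of Serpina3n, with 229 bases identical (91.6%), and it held no NF-kB match. The NF-kB match began 171 bases before the start of Serpina3n and the TATA match 28 bases before that of Serpina3b. Both strands were searched, and of 9 clade A members with a RefSeq window, Serpina3n, Serpina3g and Serpina3i held the NF-kB letters, as did 1.65% of 27025 genes in the table. Serpina3n was called higher after stripping and the other two were at 0 in stripped control skin, so the match did not go with 1 direction. The TATA letters were in 22.2% of those 9 and in 14.3% of all genes. STAT letters (TTCNNNGAA) were in 33.3% of the 9 and in 8.13% of all genes. A match is a string of letters and was not shown to be a bound site, and its absence says only that the letters are not in this window.

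**Figure D3:**
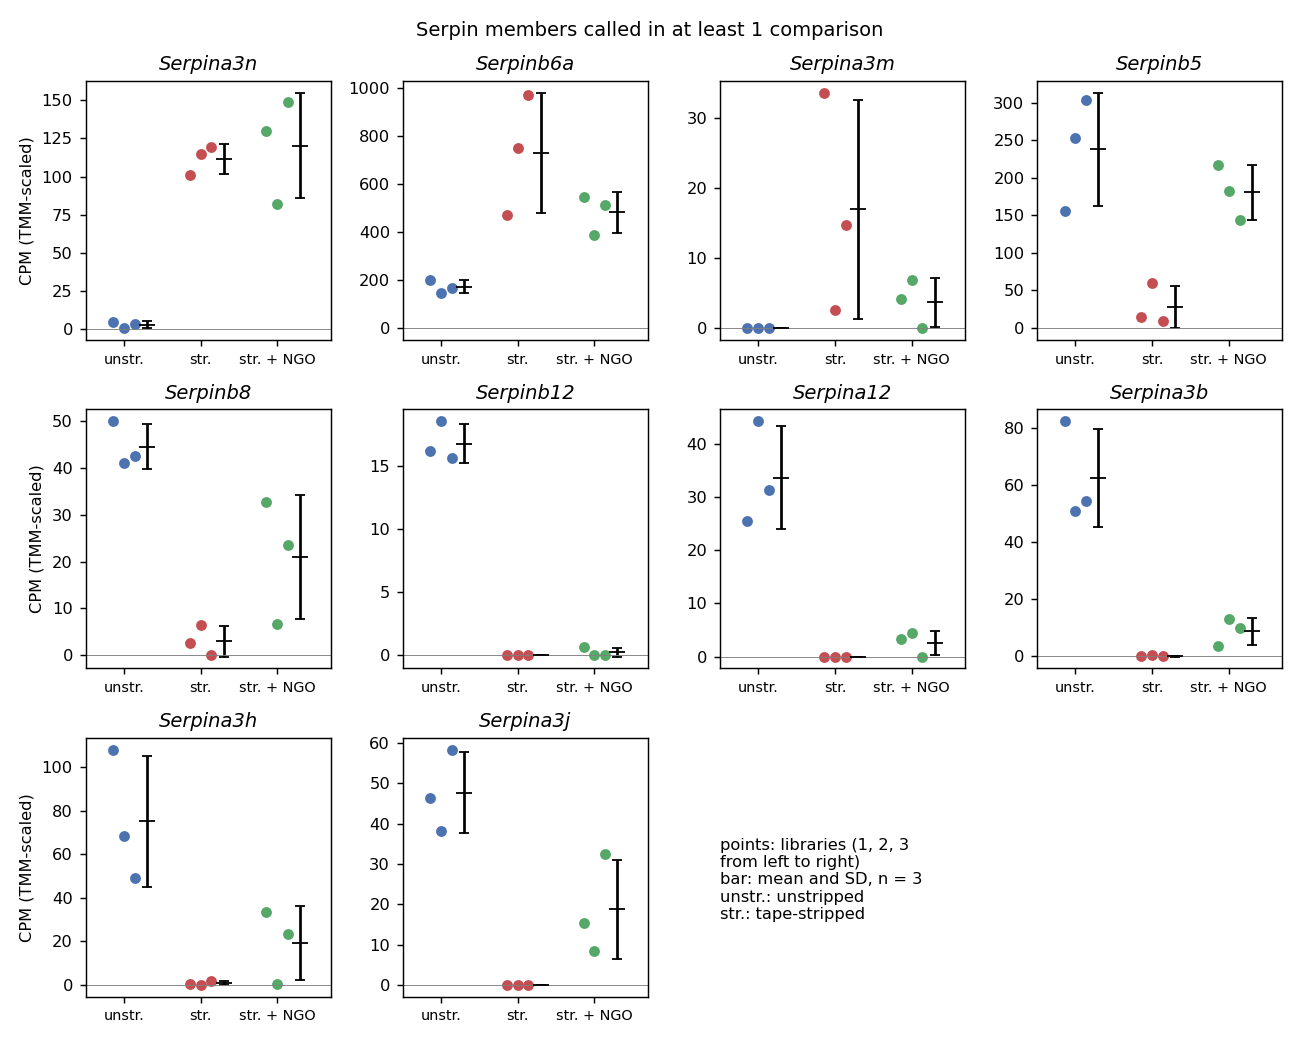
CPM (TMM-scaled, linear axis, scaled for each gene) of members called in at least 1 comparison, with each library as a point and the mean and SD of 3 libraries as a bar. Serpina3n and Serpinb6a are above the unstripped libraries in all 6 stripped ones, and the other panels except Serpina3m are lowest in stripped control skin.

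The 17 clade B members lie at 2 loci. The chromosome 1 locus (mm10, 106861173 to 107610484) holds 8 members: Serpinb5, Serpinb12, Serpinb3b, Serpinb11, Serpinb7, Serpinb2, Serpinb10 and Serpinb8. Of 7 tested, 3 fell after stripping (Serpinb5, Serpinb8 and Serpinb12), and for 6 of the 7 all stripped control libraries were below all unstripped ones. Over all genes tested 7.64% were called lower and 24.7% had stripped control libraries that were all below the unstripped ones. The median log2 fold change of the 7 was −3.73. The summed level of the locus was 349.8, 462 and 548 CPM in unstripped libraries, 99.8, 133 and 84.8 CPM in stripped control and 431, 402 and 238 CPM in NGO-treated libraries.

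Serpinb5, maspin, a serpin without inhibitory activity that is made by epithelial cells, lies at 106861173 to 106883348. It was at 156, 253 and 304 CPM in unstripped, 15.0, 60.4 and 8.68 CPM in stripped control and 216, 182 and 144 CPM in NGO-treated libraries. Every stripped control library was below every other library, while NGO-treated and unstripped libraries overlapped. The log2 fold change was −3.07 ± 0.60 after stripping (edgeR adjusted p = 0.00383), 2.68 ± 0.59 for NGO against stripped control (edgeR adjusted p = 0.0241) and −0.40 ± 0.55 for NGO against unstripped skin (edgeR adjusted p = 0.946). The call with NGO was lost without NGO-treated library 1 (edgeR adjusted p = 0.0799), 2 (0.0635) or 3 (0.051).

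Serpinb8, an inhibitor of furin-like proteases in the test tube, was at 49.9, 41.0 and 42.4 CPM in unstripped, 2.59, 6.50 and 0 CPM in stripped control and 32.6, 6.71 and 23.6 CPM in NGO-treated libraries. Its log2 fold change after stripping was −3.85 ± 1.12 (edgeR adjusted p = 0.0362), and the value for NGO against stripped control of 2.77 ± 1.08 did not pass (edgeR adjusted p = 0.157). The call after stripping was lost in 6 of 9 fits without a library: unstripped 1 (edgeR adjusted p = 0.109), 2 (0.0835) or 3 (0.0869), stripped control 1 (0.0582), and NGO-treated 1 (0.0552) or 3 (0.054). Serpinb12, an inhibitor of trypsin-like proteases, was at 16.2, 18.6 and 15.6 CPM in unstripped skin, at 0 in all stripped control libraries and at 0.604, 0 and 0 CPM with NGO. It was at least 45.5-fold lower after stripping (edgeR adjusted p = 0.0327), and the NGO-treated level was also within the limit that a count of 0 allows. Its call was lost without unstripped library 1 (edgeR adjusted p = 0.098), 2 (0.11) or 3 (0.099) and without stripped control library 2 (0.0582) or 3 (0.0571).

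The remaining members of the locus did not pass. Serpinb2, plasminogen activator inhibitor 2, was at 95.6, 91.4 and 135 CPM in unstripped, 64.7, 46.1 and 45.6 CPM in stripped control and 139, 169 and 41.1 CPM in NGO-treated libraries, with NGO-treated library 3 below the stripped control values. Its log2 fold change was −1.04 ± 0.48 after stripping (edgeR adjusted p = 0.172) and 1.16 ± 0.48 for NGO against stripped control (edgeR adjusted p = 0.18). Serpinb7, an epidermal inhibitor, was at 6.19, 17.7 and 9.43 CPM in unstripped and 0, 0.325 and 0 CPM in stripped control libraries (log2 fold change −6.19 ± 2.20; edgeR adjusted p = 0.0807). Serpinb3b, related to the human squamous cell carcinoma antigens, was at 7.22, 6.19 and 10.02 CPM in unstripped and 0, 0 and 1.61 CPM in stripped control libraries (log2 fold change −3.73 ± 1.87; edgeR adjusted p = 0.218). Serpinb10 did not share this pattern. It was at 18.2, 24.5 and 24.5 CPM in unstripped, 17.6, 19.2 and 28.9 CPM in stripped control and 36.2, 38.2 and 17.1 CPM in NGO-treated libraries, with a log2 fold change of −0.03 ± 0.65 after stripping (edgeR adjusted p = 0.986). It overlaps Serpinb2 on the same strand, so tags of the 2 genes may not be fully separated. Serpinb11 had 64 counts, was not tested, and was at 0 in all stripped control libraries, with unstripped skin at least 15.4-fold higher.

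Apart from Serpinb3b, all members of the chromosome 1 locus had the letters of an AP-1 site in the 250 bases before their RefSeq start. The AP-1 motif was TGANTCA, which reads the same on both strands. It was found for 7 of 8 members (87.5%), beside 7.82% of 27025 genes in the RefSeq table, for 1 of 9 clade A members on chromosome 12 (Serpina1a), for 0 of 8 on chromosome 13 and for 0 of 7 elsewhere. TATA, STAT and NF-kB letters were searched in the same windows. At this locus they were in 4 (50%), 1 (12.5%) and 0 of the 8, beside 14.3%, 8.13% and 1.65% of all genes. The AP-1 matches are shown with their surroundings because, for 6 of those 7 members, every stripped control library was below every unstripped one, and for Serpinb10 it was not. Serpinb3b, which had no AP-1 match, was also lower in every stripped control library than in every unstripped one, as were 24.7% of all genes tested. Of the 6, Serpinb11 was not tested and was at only 0.688 CPM in unstripped library 1. The stretches are from GRCm38.p6, plus strand, with the match in capitals, and Serpinb11 had a pair of matches.
Serpinb5, chr1:106861018-106861058: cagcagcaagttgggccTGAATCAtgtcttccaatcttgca
Serpinb12, chr1:106934387-106934427: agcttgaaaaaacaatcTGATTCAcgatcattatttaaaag
Serpinb11, chr1:107362116-107362156: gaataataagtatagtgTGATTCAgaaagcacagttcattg
Serpinb11, chr1:107362221-107362261: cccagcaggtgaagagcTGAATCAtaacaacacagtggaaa
Serpinb7, chr1:107422627-107422667: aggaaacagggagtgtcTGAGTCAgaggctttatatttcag
Serpinb2, chr1:107511312-107511352: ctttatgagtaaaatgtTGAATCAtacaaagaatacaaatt
Serpinb10, chr1:107528932-107528972: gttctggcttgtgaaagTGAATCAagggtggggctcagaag
Serpinb8, chr1:107589966-107590005: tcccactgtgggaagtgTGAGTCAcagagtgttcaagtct
The matches began from 23 (Serpinb8) to 181 (Serpinb11) bases before the start. Serpinb7 and Serpinb8 shared TGAGTCA, Serpinb5, Serpinb2 and Serpinb10 shared TGAATCA, Serpinb12 had TGATTCA, and Serpinb11 had both of the latter. The letters thus did not separate Serpinb10 from its neighbours. The summed basal and suprabasal epidermal markers were also lower in every stripped control library than in every unstripped one, and their part in these values was not tested. Of the 37 members, 32 had a RefSeq window, with 35 windows in all.

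The chromosome 13 locus (32842092 to 34002794) holds 9 clade B members, and here Serpinb6a was the 1 member of 8 tested that was called after stripping. That share is near the 13.6% called over all genes tested. Serpinb6a, an intracellular inhibitor of cathepsin G and trypsin-like proteases, lies at 33917918 to 34002794 on the minus strand. It was at 201, 147 and 168 CPM in unstripped, 469, 749 and 969 CPM in stripped control and 547, 387 and 513 CPM in NGO-treated libraries. All 6 stripped libraries were above all unstripped ones. Its log2 fold change was 2.08 ± 0.33 after stripping (edgeR adjusted p = 0.000753), 1.49 ± 0.32 for NGO against unstripped skin (edgeR adjusted p = 0.0229) and −0.60 ± 0.31 for NGO against stripped control (edgeR adjusted p = 0.296). The call for NGO against unstripped skin was lost without unstripped library 2 (edgeR adjusted p = 0.162) or 3 (0.132) and without NGO-treated library 1 (0.0892) or 3 (0.0994). Nqo2, Ripk1 and 1110046J04Rik overlap the gene on the other strand. Nqo2 and Ripk1 were not called, with log2 fold changes after stripping of −0.02 (edgeR adjusted p = 0.994) and −0.42 (edgeR adjusted p = 0.816). 1110046J04Rik was not tested and was at 0 in all unstripped, at 0, 3.90 and 25.7 CPM in stripped control and at 0, 0.694 and 4.66 CPM in NGO-treated libraries. With Serpinb6a included, the locus summed to 292, 208 and 249 CPM in unstripped and 668, 778 and 1045 CPM in stripped control libraries.

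The other members of that locus were at lower levels than Serpinb6a in every library. Serpinb1a, an inhibitor of neutrophil elastase, cathepsin G and proteinase 3, was at 18.9, 7.66 and 19.7 CPM in unstripped, 44.0, 16.2 and 61.4 CPM in stripped control and 23.2, 88.8 and 116 CPM in NGO-treated libraries. The groups overlapped after stripping (log2 fold change 1.39 ± 0.68; edgeR adjusted p = 0.206). They did not overlap between NGO-treated and unstripped skin, where the value of 2.30 ± 0.70 did not pass (edgeR adjusted p = 0.138). Serpinb9, which inhibits granzyme B, and Serpinb9d, Serpinb9f, Serpinb9g, Serpinb6c and Serpinb6e each had their highest stripped control value in library 1 of that group, and Serpinb9, Serpinb6c and Serpinb6e were at 0 in libraries 2 and 3. In total, 1 of the 9 members was at 0 in stripped control library 1, and 5 were in library 2 and in library 3. None of these 6 was called in any comparison, and Serpinb9f (100%), Serpinb9d (28.3%) and Serpinb9g (11.2%) share their transcript ends with paralogues by that percentage of 50-base stretches. Serpinb6b, with 67 counts, was seen in library 2 of each stripped group at 6.50 and 8.33 CPM and was not tested.

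Transcripts of the proteases on which such leukocyte-directed serpins act were almost absent from the libraries. Only RNA was measured, so these values do not show how much of each protease was present as protein. Of 8 neutrophil and lymphocyte serine proteases and cytolytic genes listed, 0 passed the filter. Elane, Prtn3, Ctsg, Gzma and Gzmk were at 0 in every library of all 3 groups, and Gzmb and Gzmc in every stripped library. The 8 genes summed to at most 8.77 CPM in any library. Of 6 mast cell proteases, 0 passed, with a highest sum of 7.15 CPM. Neutrophil markers summed to at most 44.8 CPM in unstripped and at least 3381 CPM in stripped control libraries, with 3 of 6 called higher after stripping and 4 of 6 lower with NGO. Among 13 listed cathepsins, 12 were tested, and only Ctsz was called after stripping, where it rose (log2 fold change 2.62 ± 0.57; edgeR adjusted p = 0.00739). With NGO 0 were called against either group by edgeR, where 3 (against stripped control) and 1 (against unstripped) had an unadjusted p under 0.05. The shares called over all genes tested were 13.6% after stripping, 5.05% against stripped control and 2.51% against unstripped skin.

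Epidermal serine proteases, which shed the cornified layer and process its proteins, were called in 1 direction after stripping. Of 15 listed, 12 were tested and 4 fell, beside 7.64% of all genes tested. The 3 with the smallest p were Tmprss13 (log2 fold change −2.96 ± 0.52; edgeR adjusted p = 0.00181), Tmprss4 (−4.79 ± 1.01; edgeR adjusted p = 0.00636) and Klk11 (−4.63 ± 1.13; edgeR adjusted p = 0.0145). Klk11 was the only one of the 12 called with NGO against stripped control, where it was higher (4.55 ± 1.12; edgeR adjusted p = 0.0357), beside 3.87% of all genes tested. The inhibitors of other families moved in both directions. Of 25 listed, 21 were tested, and 4 rose and 2 fell after stripping (5.97% and 7.64% of all genes tested). Spink5, the kallikrein inhibitor LEKTI, fell (−3.88 ± 0.40; edgeR adjusted p = 5.25e-05), while Slpi, the secretory leukocyte protease inhibitor, rose (7.55 ± 0.96; edgeR adjusted p = 0.000192), as did Wfdc17 (7.31 ± 1.09; edgeR adjusted p = 0.00054). With NGO against stripped control 2 of the 21 were higher, Spink5 (2.09 ± 0.37; edgeR adjusted p = 0.00774) and BC100530 (1.89 ± 0.40; edgeR adjusted p = 0.0194), and 0 were lower. Of all genes tested, 3.87% were higher and 1.18% lower in that comparison.

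The secreted serpins of coagulation, complement and the vessel wall lie outside the 3 clusters. Serping1 encodes the C1 inhibitor, which blocks the complement proteases C1r and C1s and plasma kallikrein. It was at 7.57, 6.19 and 2.65 CPM in unstripped, 37.2, 40.6 and 27.6 CPM in stripped control and 10.6, 25.4 and 105 CPM in NGO-treated libraries. Every stripped library was above every unstripped one, yet the log2 fold changes of 2.68 ± 0.85 after stripping (edgeR adjusted p = 0.0522) and 3.10 ± 0.86 for NGO against unstripped skin (edgeR adjusted p = 0.0933) did not pass. Serpinc1, antithrombin, was at 2.41, 4.13 and 1.18 CPM in unstripped, 13.97, 12.7 and 18.6 CPM in stripped control and 0, 0 and 0.998 CPM in NGO-treated libraries. The 3 groups did not overlap, and neither the stripping value (2.54 ± 1.60; edgeR adjusted p = 0.345) nor the value for NGO against stripped control (−5.26 ± 1.82; edgeR adjusted p = 0.113) passed. Antithrombin is made mainly by liver, and the summed hepatocyte markers were at 48.6, 432 and 1.93 CPM in stripped control libraries 1, 2 and 3, and their part in the Serpinc1 values was not tested. They summed to between 2.95 and 7.66 CPM in unstripped and between 0 and 11.8 CPM in NGO-treated libraries, and the 1 of 7 that could be tested was not called.

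Serpinf1, pigment epithelium-derived factor, which has no inhibitory activity and limits vessel growth, was at 0 in all unstripped libraries, at 0, 36.1 and 9.64 CPM in stripped control and at 2.11, 0.694 and 6.32 CPM in NGO-treated libraries. Its pooled stripped control level was at least 56.1-fold above the unstripped one and did not pass (edgeR adjusted p = 0.0509), and stripped control library 1 was itself at 0. Serpinf2, the plasmin inhibitor alpha-2-antiplasmin, went the other way with only 30 counts, all in unstripped skin (2.75, 3.54 and 2.95 CPM). That is at least 8.38-fold above the stripped control and at least 14.1-fold above the NGO-treated limit, with no test. Serpind1, heparin cofactor II, had 36 counts, with 0, 7.37 and 1.77 CPM in unstripped and 0 in all stripped control libraries. Serpinh1, the collagen chaperone Hsp47, was at 8.94, 25.4 and 30.7 CPM in unstripped, 31.0, 46.1 and 32.1 CPM in stripped control and 17.8, 7.87 and 17.6 CPM in NGO-treated libraries. All NGO-treated libraries were below all stripped control ones, and the log2 fold change of −1.33 ± 0.72 did not pass (edgeR adjusted p = 0.307).

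Of 22 genes of coagulation, the kinin system and complement C1, 17 were tested, and 2 rose and 1 fell after stripping. Of all genes tested, 5.97% rose and 7.64% fell in that comparison. Thbd, thrombomodulin, rose (log2 fold change 4.26 ± 0.41; edgeR adjusted p = 3.47e-05), as did Procr, the endothelial protein C receptor (4.54 ± 0.65; edgeR adjusted p = 0.000386). F2rl1, the protease-activated receptor 2 of keratinocytes, fell (−6.70 ± 1.24; edgeR adjusted p = 0.00257). With NGO against stripped control, F2rl1 was higher (5.10 ± 1.18; edgeR adjusted p = 0.0285) and Thbd lower (−1.72 ± 0.37; edgeR adjusted p = 0.0207), and 2 of the 17 were higher than in unstripped skin. Of all genes tested, 3.87% were higher and 1.18% lower against stripped control, and 2.06% were higher than in unstripped skin. Of the 14 collagen folding partners of Serpinh1, all tested, 4 rose and 1 fell after stripping (5.97% and 7.64% of all genes tested). The 4 were led by Col3a1 (1.77 ± 0.32; edgeR adjusted p = 0.00192), Col1a1 (1.70 ± 0.36; edgeR adjusted p = 0.0061) and Col1a2 (1.86 ± 0.42; edgeR adjusted p = 0.00973). Between NGO-treated and stripped control skin edgeR called 0 of the 14, beside 5.05% of all genes tested, and 1 had an unadjusted p under 0.05. The median log2 fold changes after stripping were 0.34 for the 6 tested plasminogen genes, 1.36 for the 17 of coagulation and complement, 0.47 for the 12 cathepsins, −1.03 for the 12 epidermal proteases, 0.37 for the 21 other inhibitors and 0.69 for the 14 collagen partners, beside −0.20 over all genes tested.

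The NGO cream was compared with the control cream on stripped skin, which asks what the graphene oxide added. Of the 30 tested members 3 were called higher, Serpina3b, Serpina3j and Serpinb5, and 0 lower, while 9 had an unadjusted p under 0.05. Over all genes tested 5.05% were called, 3.87% higher and 1.18% lower. These 3 are among the 7 that fell after stripping, and both comparisons use the same stripped control libraries. With RLE in place of TMM scaling the same number of members was called, and the split over all genes went from 532 higher and 162 lower to 428 higher and 215 lower. The calls rested on a spread shared by all 9 libraries, although the groups differed in it, with a common biological coefficient of variation of 0.463 among unstripped, 1.10 among stripped control and 0.835 among NGO-treated libraries. In a fit of the 6 compared libraries alone, 0 of 22 tested members passed and 4 had an unadjusted p under 0.05, with edgeR adjusted p = 0.204 for Serpina3b, 0.105 for Serpina3j and 0.0925 for Serpinb5. Over all genes that fit called 0.951%. DESeq2 called 6 members, 5 higher and 1 lower, and 9.86% of all genes. With limma-voom 4 members were called, 3 higher and 1 lower, and 9.24% of all genes. The median log2 fold change was 0.26 over the 30 tested members and 0.05 with genes at 0 put at their bound, beside 0.07 over all genes. All NGO-treated libraries lay above all stripped control ones for 4 members and below them for 2 (16.3% and 8.92% of all genes tested). The basal epidermal markers, higher with NGO in 6 of 6, and the suprabasal markers, higher in 3 of 6, moved with these members.

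Against unstripped skin, NGO-treated skin had 3 members called higher, with Serpina3n and Serpinb6a among them, and 0 lower, of 30 tested, with 10 at an unadjusted p under 0.05. Over all genes tested 2.51% were called, 2.06% higher and 0.451% lower. DESeq2 called 7 members, 5 higher and 2 lower, and 4.1% of all genes (533 higher and 273 lower). With limma-voom 6 members were called, 3 in each direction, and 2.6% of all genes (148 higher and 209 lower). All NGO-treated libraries lay above all unstripped ones for 6 members and below them for 11 (11.9% and 14.4% of all genes). Among those below were Serpina3b (log2 fold change −2.82 ± 0.80; edgeR adjusted p = 0.104) and Serpinb12 (−6.29 ± 2.04; edgeR adjusted p = 0.19). The 3 members called higher here are 3 of the 4 that rose after stripping, and both comparisons use the same unstripped libraries. The median log2 fold change was −0.65 over the 30 tested members, beside −0.07 over all genes.

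**Figure D4:**
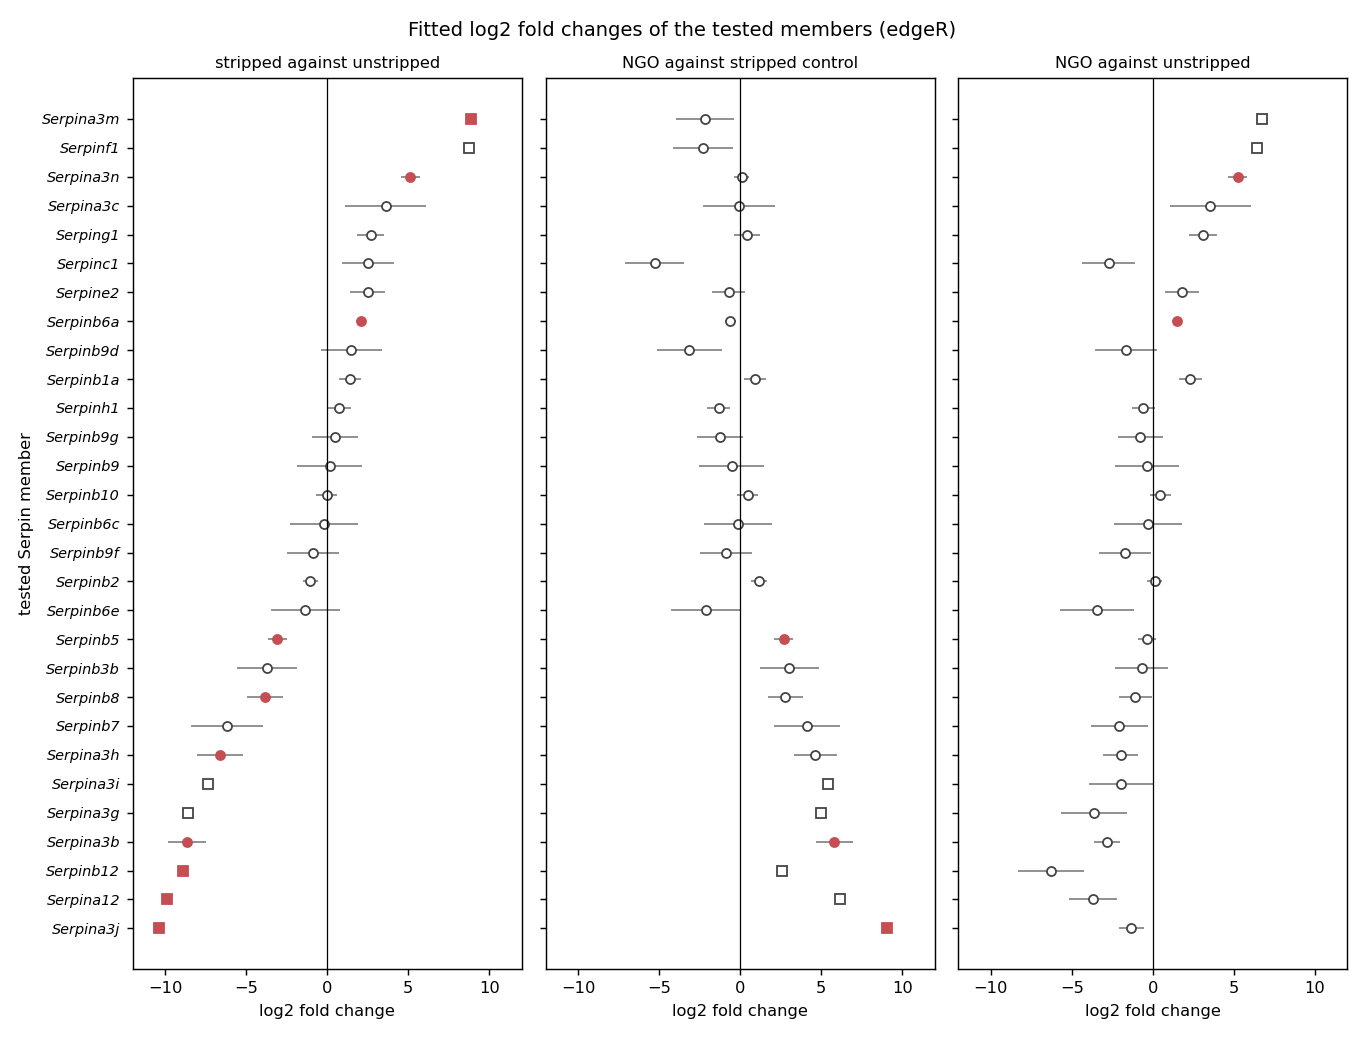
Fitted log2 fold changes of tested members described in the text (lines, in the order of the stripping comparison) in the 3 comparisons, with SE as bars and filled red symbols for members called at an adjusted p under 0.05. Squares without a bar mark members at 0 throughout a compared group, whose fitted value is no estimate of size. The left panel has 7 filled symbols below 0, the middle panel 3 above 0, and in the right panel Serpina3n and Serpinb6a are filled.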

How the data were processed

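The authors deposited 1 table of raw counts per gene symbol for each of the 9 libraries, which were made from Trizol RNA with a Lexogen QuantSeq 3′-tag kit, per the labels' protocols. The submitters' processing notes name mm10 as the build and Bowtie2 and bedtools as tools and give no versions. The sources used here do not give the treatment of strand, of overlapping genes or of reads with several matches, which leaves paralogous and overlapping serpin genes uncertain.

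Counts were analysed in R 4.3.3 with the quasi-likelihood test of edgeR 4.0.16 (TMM factors, filterByExpr, robust) on the whole table. All 9 libraries entered the model with group as its factor, and Benjamini-Hochberg adjustment covered 13740 genes. The scripts were tested on simulated data, where a limit on false calls was set for edgeR and limma-voom and not for DESeq2. A permutation of 3 against 3 libraries gives no exact p below 0.1. Folds against a group at 0 use 3 counts over that group as a floor (0.310, 0.369 and 0.220 CPM in None, TS and TS_NGO), which covers counting error only. Alternatives used RLE and upper-quartile scaling, other filters and library sizes, DESeq2 1.42.0, limma 3.58.1, a replicate block, the compared groups alone and each library left out. No pair of replicates of a group agreed within sampling noise.

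Named were all called members, the 8 of highest mean CPM, every member at 0 throughout a group, those around the 30-count minimum and up to 3 called genes per partner list and comparison. Other members were named after their values were seen. The values of 1 member that the rule names are not reported here, and it stays in the counts and sums. The members, the 8 partner lists and the 10 marker lists were chosen with earlier results of these data known. Gene positions came from GENCODE M21 on mm10, and promoter windows from RefSeq on GRCm38.p6.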

Additional observations from a re-analysis of the deposited data

How the results depend on the processing

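Leaving out each library in turn moved the number of members called from 8 to 11 after stripping, from 2 to 3 for NGO against stripped control and from 2 to 4 for NGO against unstripped skin. Over all genes, the shares called in those fits ran from 7.83% to 14.3%, 1.38% to 6.24% and 1.45% to 3.33% in the same order. For NGO against stripped control, where 3 were called, DESeq2 called 6, the fit of the compared groups alone 0 and limma-voom with sample weights 1. For NGO against unstripped skin, also 3, the count was 5 with no low-count filter, 7 with DESeq2, 6 with limma-voom, 5 in the fit of the compared groups alone and 8 with sample weights. Over all genes, the shares called for NGO against unstripped skin were 2.1% with no low-count filter, 4.73% in the compared groups alone and 9.85% with sample weights, which called 3.01% against stripped control. The sample weights were chosen after seeing that the groups differed in spread. After stripping the count ran from 8 to 16 over all settings, and the share of all genes called from 7.83% to 18.8%. CPM by the raw library total gave a mean of 118 for clade A in stripped control skin (140 with TMM) and 788 for clade B in unstripped skin (703). The stripped control mean of clade B went from 936 with TMM to 778 by raw total. Its excess over the unstripped mean was thus seen with TMM and not by raw total. With NGO the clade B mean was 941 with TMM and 994 by raw total, above the unstripped mean either way. RLE scaling moved the median over all genes after stripping from −0.20 to −0.07. The cause of these moves was not tested.

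Over all settings the sign of 0 called members reversed, 34 single-gene results lost their call and 288 kept their side of the threshold. In all 9 left-out fits and all other settings, Serpina3n, Serpinb6a, Serpinb5, Serpina3b, Serpina3h, Serpina3j and Serpina12 stayed called after stripping, as did Serpina3n for NGO against unstripped skin. Replicates share numbers across groups, but same-numbered libraries did not deviate together (correlations from −0.06 to 0.09). With the replicate number as a block, 8 members were called after stripping, all among the 11, without Serpina3m (edgeR adjusted p = 0.0797), Serpinb12 (0.0622) and Serpinb8 (0.0605). The block left 3 calls for NGO against stripped control and 3 against unstripped skin. Over all genes it called 12% after stripping, 4.07% and 2.28% in the NGO comparisons. Depth limits the 7 untested members, which had 67 counts or fewer in all.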
